A study of Macaca fascicularis with 11 samples.

Results

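DNMT3B and DNMT3L are the 2 genes of the de novo DNA methylation machinery described here, taken by symbol from the 19367 genes of the count tables (identifiers ENSMFAG00000040834 and ENSMFAG00000046145). Both were measured by single-cell RNA sequencing in embryos of the cynomolgus macaque (Macaca fascicularis), which had been frozen as blastocysts, thawed, freed of the zona pellucida and grown in culture to Day 10, Day 12 or Day 14. Wild-type embryos gave 7194 cells in 6 libraries (12 embryos, 2 libraries per day). ISL1 hypomorphic mutant embryos gave 26136 cells in 5 libraries (11 embryos, 1 library at Day 10 and 2 at each later day), and came from zygotes injected with SpCas9 and a pair of guide RNAs against ISL1, the gene of a LIM homeodomain transcription factor. Each library held the cells of 1 to 3 embryos together. The mutant embryos were mosaic, with several edited alleles that were mostly frameshifts. Apart from the injection both genotypes went through the same culture media, and the age of all embryos within a day was the same. The libraries are numbered by the batch number in their titles, which do not say whether a number is shared between genotypes or days. Genotype and batch could therefore not be told apart. Below, batch 1 and batch 2 mean libraries of the same number within a genotype, which came from different embryos on each day. The p-values measure the spread between pooled libraries.

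In mammals the genome loses most of its DNA methylation before implantation and regains it as the epiblast passes from the naive to the primed state of pluripotency. DNMT3B is an enzyme that places methyl groups on unmethylated CpG sites and is abundant in the primed epiblast. DNMT3L has no catalytic activity of its own: it binds the DNMT3 enzymes and stimulates them, is known from germ cells and naive pluripotent cells, and in primates is also made in the placenta. The trophoblast, which builds the placenta, keeps a less methylated genome than the embryo proper. Only transcripts were counted here, and neither protein nor DNA methylation was measured.

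DNMT3B was counted with 56915 unique molecular identifiers (UMIs, each standing for 1 captured transcript) in 8669 of the 33330 cells, and DNMT3L with 30551 UMIs in 4054 cells. Total UMIs per library ran from 36654977 to 164808415 and the median per cell from 10916 to 142180. In the mutants the median per cell was 99406 on Day 10, 18893 and 21836 on Day 12, and 10916 and 23378 on Day 14. Values below are UMIs of a gene per 1000000 UMIs (CPM) summed over the cells of 1 class in 1 library, with at least 5 cells. A 3′ count does not grow with transcript length, but it is not corrected for how well each 3′ end is captured, so the ratio of both genes is followed across libraries and not read as a ratio of molecules. In a sum over cells, fewer expressing cells and fewer transcripts per cell cannot be told apart, and shares of cells are therefore given beside the main results. Of the cell barcodes, 124 occurred in more than 1 library, which is a small share of the 33205 different barcodes.

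The clusters were built without DNMT3B, DNMT3L and the listed methylation and pluripotency-state genes, and were named from lineage markers. They gave 3041 Epi-derived cells, 488 endoderm-like cells, 6551 cells like the extraembryonic mesenchyme (ExE-Mech-like) and 22870 trophoblast-like cells. Among the Epi-derived cells, 1401 were epiblast-like (Epi-like), 657 amnion-like, 374 mesoderm-like and 609 stayed unnamed. The marker lists also named the clusters, so the marker levels that follow describe the labels and are no independent check of them. POU5F1, the core pluripotency factor, stood at 1320 to 1710 CPM in Epi-like cells and at 0.212 to 17.6 CPM in trophoblast-like cells. The summed trophoblast markers reached 5380 to 19500 CPM in trophoblast-like and at most 403 CPM in Epi-like cells. The labels of the derived classes were less sharp, since the 9 amnion markers summed to 3940 to 13100 CPM in amnion-like cells but also to 3110 to 6460 CPM in trophoblast-like and 1940 to 6650 CPM in mesoderm-like cells. The 8 Epi markers summed to 508 to 1980 CPM in wild-type and 709 to 6220 CPM in mutant amnion-like cells. In Epi-like cells they summed to 3070 to 4890 CPM in the wild type and 3770 to 18000 CPM in the mutants. The 8 mesoderm markers summed to 735 to 2590 CPM in mesoderm-like and 388 to 1370 CPM in endoderm-like cells. ISL1, the edited gene, lay at 12.3 to 189 CPM in wild-type and 18.8 to 189 CPM in mutant amnion-like cells, but a 3′ count does not read the edited stretch and so does not check the genotype.

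DNMT3B was highest in the Epi-like cells. In wild-type Epi-like cells it stood at 387 and 561 CPM at Day 10 (replicates 1 and 2), 341 and 530 CPM at Day 12, and 384 and 492 CPM at Day 14. In mutant Epi-like cells it stood at 501 CPM at Day 10, 378 and 427 CPM at Day 12, and 330 and 203 CPM at Day 14. Epi-like cells had the highest DNMT3B of the named classes in each of the 11 libraries, with a mean of 449 ± 90.2 CPM (SD, n = 6) in the wild type and 368 ± 112 CPM (SD, n = 5) in the mutants.

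Below the epiblast, the median DNMT3B of the wild-type libraries was 117 CPM in mesoderm-like, 75.2 CPM in amnion-like, 59.6 CPM in endoderm-like, 21.6 CPM in trophoblast-like and 18.4 CPM in ExE-Mech-like cells. These medians pool the days over unequal sets of libraries, with 6 for endoderm-like and trophoblast-like, 5 for mesoderm-like, 4 for amnion-like and 3 for ExE-Mech-like cells, none of the last from Day 10. In 2 of the 3 libraries with both, ExE-Mech-like cells stood above trophoblast-like cells. The wild-type ranges of the derived classes overlapped those of other lineages. Amnion-like cells ran from 24.0 to 236 CPM and mesoderm-like cells from 54.4 to 149 CPM. Endoderm-like cells ran from 30.7 to 96.6 CPM and trophoblast-like cells from 5.78 to 174 CPM. Summed over all Epi-derived cells, DNMT3B was higher than in the trophoblast-like cells of the same library in 11 of 11 libraries, by 2.61-fold to 37.0-fold. It was higher than in endoderm-like cells in 11 of 11 libraries, by 3.6-fold to 11.9-fold, and higher than in ExE-Mech-like cells in 8 of 8, by 8.84-fold to 13.8-fold. In the wild type the log2 fold change was 3.08 against trophoblast-like cells (SE 0.41, adjusted p = 7.93e-06 by the edgeR quasi-likelihood test), and 50.2% of the 13397 genes tested were called there at a false discovery rate of 1%. It was 2.65 against endoderm-like cells (SE 0.41, adjusted p = 6.35e-05, with 37.5% of genes called) and 3.28 against ExE-Mech-like cells (SE 0.55, adjusted p = 0.000213, with 25.6% called). The mutants gave 4.41, 2.81 and 3.22 (adjusted p = 5.66e-11, 1.92e-08 and 1.44e-09), with 50.8%, 26.2% and 35.5% of genes called.

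With the days pooled, the other lineages did not fall into a firm order for DNMT3B in the wild type. Endoderm-like cells differed from trophoblast-like cells by 0.42 on the log2 scale (adjusted p = 0.398 by edgeR) and from ExE-Mech-like cells by 0.63 (adjusted p = 0.369), neither of which passed the threshold. The order of the first pair turned with the day. At Day 10 endoderm-like cells held 87.8 and 96.6 CPM against 98.8 and 174 CPM in trophoblast-like cells. In the wild-type libraries of Day 12 and Day 14 endoderm-like cells were higher, by 1.97-fold to 5.34-fold. In the mutants endoderm-like cells were higher than trophoblast-like cells by 1.60 (adjusted p = 1.96e-06, with 37.3% of genes called), a call that was lost when lineages were assigned by marker percentile (0.49, adjusted p = 0.211). ExE-Mech-like cells of the mutants were higher than trophoblast-like cells by 1.2 (adjusted p = 5.35e-06, with 40.7% of genes called).

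**Figure D1:**
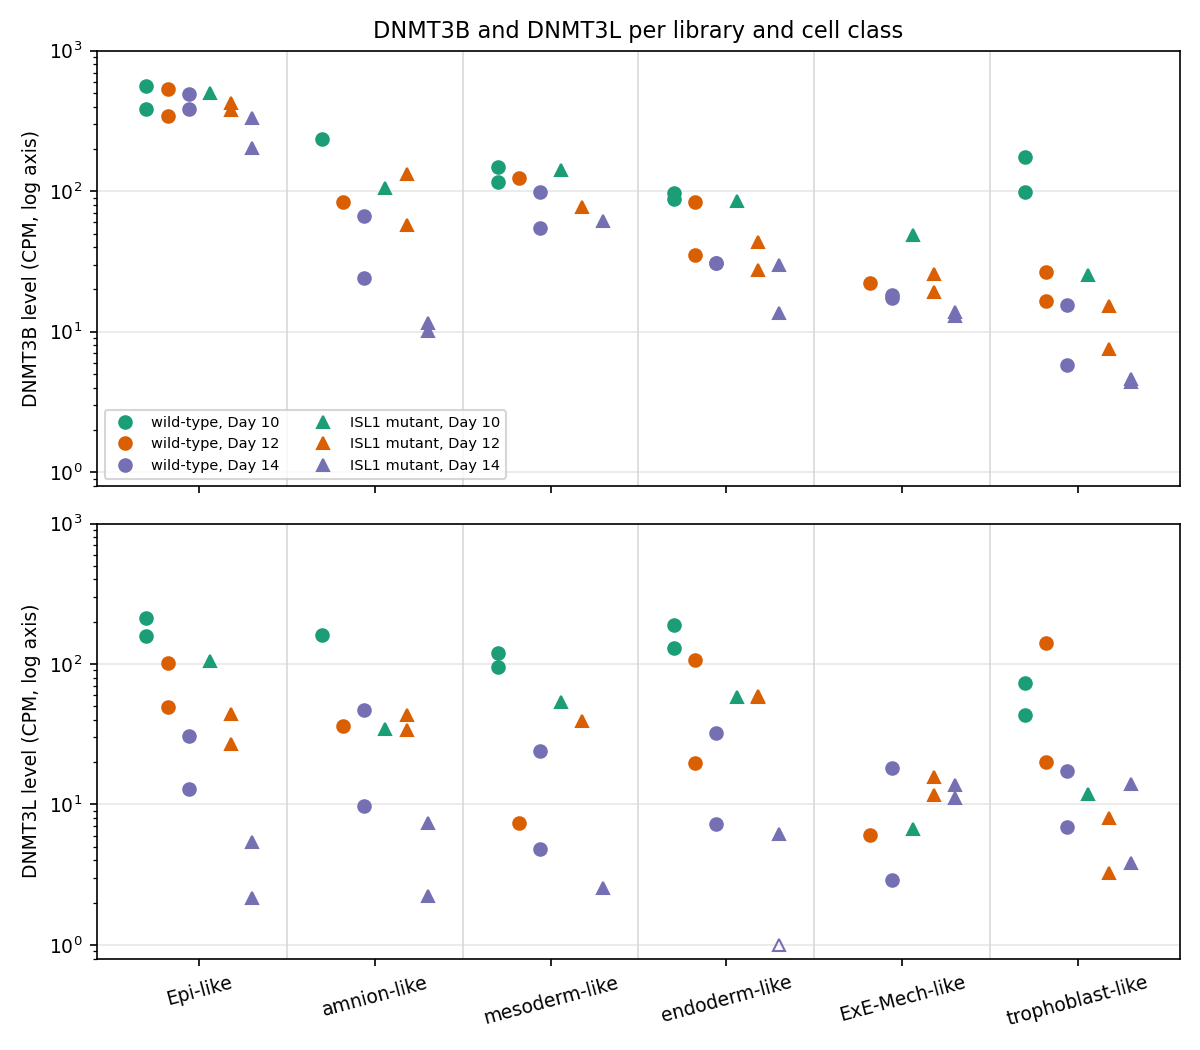
Level of DNMT3B and DNMT3L in each cell class, in CPM on a log axis, with 1 point per library, shaped by genotype and coloured by day as the legend gives (0 CPM is drawn as an open symbol at 1). DNMT3B lies at 203 to 561 CPM in Epi-like cells, above the other classes plotted for the same library, while the DNMT3L points of the classes overlap.

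DNMT3L did not follow that lineage order. The wild-type medians were 75.3 CPM in Epi-like, 69.8 CPM in endoderm-like, 41.7 CPM in amnion-like, 31.7 CPM in trophoblast-like, 24.2 CPM in mesoderm-like and 6.02 CPM in ExE-Mech-like cells, over the same unequal sets of libraries. In the 3 libraries shared with ExE-Mech-like cells the trophoblast-like level was 20.1, 6.89 and 17.2 CPM against 6.02, 2.88 and 18.2 CPM. Neighbours in this order overlapped across libraries. The Epi-derived sum was higher than the endoderm-like sum in 5 of 11 libraries (0.348-fold to 1.78-fold), higher than the trophoblast-like sum in 8 of 11 (0.492-fold to 10.2-fold) and higher than the ExE-Mech-like sum in 6 of 8 (0.155-fold to 14.5-fold).

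None of the 6 comparisons of Epi-derived cells with another lineage passed the threshold for DNMT3L by the edgeR test, and 2 had an unadjusted p under 0.05. The wild-type log2 fold change of Epi-derived cells was 0.59 against trophoblast-like cells (SE 0.29, adjusted p = 0.0849), 0.24 against endoderm-like cells (SE 0.31, adjusted p = 0.54) and 1.46 against ExE-Mech-like cells (SE 0.41, adjusted p = 0.0103). The last stood close to the threshold and passed it with DESeq2 (1.55, adjusted p = 0.000759) and without the library of wild-type Day 10 replicate 2 (1.35, adjusted p = 0.00894) or Day 12 replicate 1 (1.63, adjusted p = 0.00352). The mutants gave 1.71 (adjusted p = 0.0341), -0.20 (adjusted p = 0.865) and 0.92 (adjusted p = 0.277). The difference against trophoblast-like cells passed in the mutants without the Day 14 replicate 1 library (2.16, adjusted p = 0.00932) or the replicate 2 library (2.36, adjusted p = 0.0061).

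Endoderm-like cells at Day 10 held DNMT3L at levels near those of the epiblast, with 189 and 129 CPM in the wild type and 58.4 CPM in the mutant, against 157, 212 and 105 CPM in Epi-like cells. At Day 12 endoderm-like cells stood at 107 and 19.7 CPM in the wild type and 59.1 and 58.2 CPM in the mutants. At Day 14 they stood at 7.26 and 32.5 CPM in the wild type, and at 6.14 and 0 CPM in the mutants. The value of 0 CPM came from 11 cells, in which a count of 0 allows up to 17.8 CPM. DNMT3B in the same wild-type cells stood at 87.8 and 96.6 CPM on Day 10, 35.2 and 83.9 CPM on Day 12, and 30.9 and 30.7 CPM on Day 14. In the mutants it stood at 85.2 CPM on Day 10, 43.7 and 27.7 CPM on Day 12, and 13.5 and 29.6 CPM on Day 14.

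Within the epiblast's progeny DNMT3B was lower in both derived classes. It was higher in Epi-like than in amnion-like cells in 9 of 9 libraries, by 2.38-fold to 32.8-fold, with a log2 fold change of 2.83 (SE 0.27, adjusted p = 3.54e-08, 36.8% of the 10192 genes called). Against mesoderm-like cells it was higher in 8 of 8 libraries, by 3.3-fold to 7.06-fold, with a log2 fold change of 2.42 (SE 0.27, adjusted p = 5.22e-07, 24.6% of genes called). Mesoderm-like and amnion-like cells differed by 0.41 (SE 0.29, adjusted p = 0.355).

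The lowest amnion-like values were those of Day 14. Wild-type amnion-like cells held 236 CPM of DNMT3B at Day 10 in replicate 2, 83.8 CPM at Day 12 in replicate 2, and 24.0 and 66.6 CPM at Day 14. Mutant amnion-like cells held 105 CPM at Day 10, 133 and 57.3 CPM at Day 12, and 10.1 and 11.5 CPM at Day 14. Mesoderm-like cells stayed higher at the last day, with 54.4 and 98.3 CPM in the wild type and 61.5 CPM in mutant replicate 1. The unnamed Epi-derived cells lay between them and the epiblast at Day 14, with 117 and 159 CPM in the wild type and 136 CPM in the mutant.

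DNMT3L passed the test between Epi-like and mesoderm-like cells and not between Epi-like and amnion-like cells. It was higher in Epi-like than in mesoderm-like cells in 7 of 8 libraries (log2 fold change 1.03, SE 0.22, adjusted p = 0.00101), a call lost when the cells were clustered without integration (0.80, adjusted p = 0.0381). Against amnion-like cells it was higher in 5 of 9 libraries (0.45, SE 0.23, adjusted p = 0.108). Mesoderm-like and amnion-like cells differed by -0.59 (SE 0.26, adjusted p = 0.124), so that the classes were not told apart from each other. Wild-type amnion-like cells held 162 CPM of DNMT3L on Day 10 in replicate 2, 36.1 CPM on Day 12 in replicate 2, and 9.74 and 47.2 CPM on Day 14. Mutant amnion-like cells held 34.6 CPM on Day 10, 33.8 and 43.3 CPM on Day 12, and 2.24 and 7.33 CPM on Day 14 (4 and 7 UMIs). In replicate 2 of wild-type Day 14 the amnion-like level was above the Epi-like level (30.8 CPM).

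Over the days DNMT3L fell in the wild-type epiblast, while DNMT3B showed no change there beyond the spread between libraries. In wild-type Epi-like cells DNMT3L stood at 157 and 212 CPM at Day 10, 101 and 49.6 CPM at Day 12, and 12.9 and 30.8 CPM at Day 14. In mutant Epi-like cells it stood at 105 CPM at Day 10, 44.3 and 27.0 CPM at Day 12, and 2.16 and 5.38 CPM at Day 14 (4 and 8 UMIs). Both libraries of each later day lay below every library of the day before it, within each genotype. The share of all genes tested that were lower with no such overlap was 20.4% from Day 10 to Day 12 and 17.4% from Day 12 to Day 14 in the wild type. It was 39.4% and 29.4% in the mutants, with 1 library at Day 10.

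From Day 10 to Day 14 wild-type Epi-like cells lost DNMT3L by a log2 fold change of -3.29 (SE 0.50, 9.78-fold lower, adjusted p = 0.00318, edgeR), when 1.34% of 10337 genes were called. The study had already reported a fall of DNMT3L from early to late epiblast with cells of these same wild-type libraries. Its direction is therefore not independent evidence, here or in the ratio below. The decrease between libraries of the same number was 12.2-fold in batch 1 and 6.88-fold in batch 2. Leaving out the wild-type Day 14 replicate 1 library gave -2.64 (adjusted p = 0.128), and leaving out Day 10 replicate 2 gave -3.10 (adjusted p = 0.0187), so that the call at 1% rested on both. The single step from Day 10 to Day 12 was -1.26 (adjusted p = 0.285). In the mutants the change from Day 10 to Day 14 was -4.70 (SE 0.63, adjusted p = 0.00733, 0.3% of genes called), with 1 library at Day 10 that is assumed to vary as the libraries of the other groups do. That call was lost with a replicate block (-4.68, adjusted p = 0.016) and without mutant Day 12 replicate 1 (-4.70, adjusted p = 0.0104), Day 14 replicate 1 (-4.06, adjusted p = 0.03) or Day 14 replicate 2 (-5.58, adjusted p = 0.0381). Between Day 12 and Day 14 of the mutants DNMT3L changed by -3.22 (SE 0.60, adjusted p = 0.0347 by edgeR, 0.0774% of genes called), with a 20.5-fold decrease in batch 1 and a 5.02-fold decrease in batch 2. The Day 14 levels of both folds rest on 4 and 8 UMIs and are near the floor.

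DNMT3B in the same wild-type cells changed by -0.08 from Day 10 to Day 14 (95% interval -0.63 to 0.47, adjusted p = 0.919). Between libraries of the same number the Day 14 level was 1.01-fold and 1.14-fold lower than that of Day 10. In the mutants the change from Day 10 to Day 14 was -0.79 (95% interval -1.43 to -0.14, unadjusted p = 0.0331 and adjusted p = 0.204 by the edgeR test), and that from Day 12 to Day 14 was -0.51 (adjusted p = 0.426). Neither passed the threshold, but both mutant Day 14 libraries (330 and 203 CPM) lay below the 3 earlier ones (378 to 501 CPM). From Day 12 to Day 14 of the mutants 29.4% of all genes tested were lower in the same way.

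The DNMT3L UMIs found per 100 DNMT3B UMIs put the change on a scale that does not depend on library size. In wild-type Epi-like cells this ratio was 40.7 and 37.7 on Day 10, 29.5 and 9.41 on Day 12, and 3.36 and 6.43 on Day 14. In the mutants it was 21.1 on Day 10, 11.7 and 6.4 on Day 12, and 0.737 and 2.81 on Day 14, the last 2 from 4 and 8 DNMT3L UMIs. The mean log2 ratio of Day 10 was -1.65 and that of the later days -4.17, a difference of -2.52 (exact permutation test within genotype, two-sided, p = 0.0267 over 75 arrangements, the smallest possible being 0.0133). Without either of the wild-type Day 10 libraries the p of this test was 0.08 (smallest possible 0.04), at differences of -2.34 and -2.39. Without the mutant Day 10 library it was 0.0667, which is the smallest possible there, at -2.81. Without mutant Day 14 replicate 2 it was 0.05 (smallest possible 0.0167), at -2.37.

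**Figure D2:**
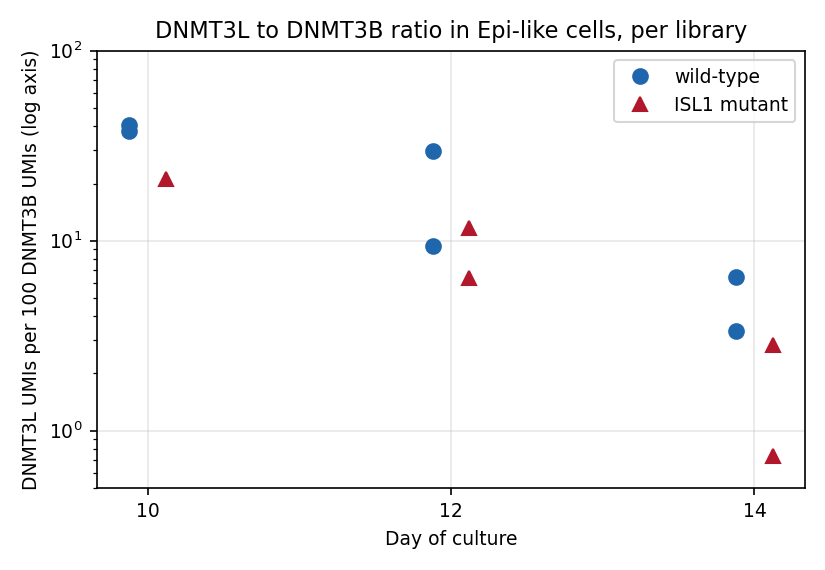
DNMT3L UMIs per 100 DNMT3B UMIs in Epi-like cells (log axis) by day of culture, with 1 point per library and the genotypes told apart as the legend gives. The ratio runs from 21.1 to 40.7 at Day 10 and from 0.737 to 6.43 at Day 14, where the mutant points rest on 4 and 8 DNMT3L UMIs.

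Counts per cell gave the following. The median Epi-like cell of the wild type held 20 and 49 DNMT3B UMIs on Day 10, 44 and 19 on Day 12, and 16 and 13 on Day 14. Its DNMT3L UMIs numbered 8 and 19 on Day 10, 13.5 and 1 on Day 12, and 0 and 0.5 on Day 14. These medians move with the depth of each library, so every cell was also thinned to 10000 UMIs.

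After thinning, 95.9% to 100% of wild-type Epi-like cells of any day still had a DNMT3B UMI. The share with a DNMT3L UMI was 77.5% to 85.7% at Day 10, 26.3% to 64.3% at Day 12 and 10.8% to 33.3% at Day 14, where the unthinned shares were 99.1% to 100%, 75.9% to 100% and 34.3% to 50.0%. In the mutants the thinned share of DNMT3L went from 61.5% at Day 10 to 20.8% and 34.2% at Day 12 and to 0% and 6.67% at Day 14 (2.15% and 14.7% unthinned), where 0 of 81 cells allows a share of up to 3.70%. Their thinned share of DNMT3B was also lower at the last day, with 97.3% at Day 10, 94.8% to 95.8% at Day 12 and 81.5% to 86.7% at Day 14. At mutant Day 14, 109 of the 220 Epi-like cells had fewer UMIs than the thinning depth and were left out. Among the clusters of all Epi-derived cells, which also hold the derived classes, the DNMT3L level ran from 82.4 to 190 CPM at Day 10, 26.3 to 63.5 CPM at Day 12 and 3.09 to 11.2 CPM at Day 14. The DNMT3B level of the same clusters ran from 90.1 to 596 CPM, 52.4 to 426 CPM and 5.4 to 369 CPM. Their DNMT3B medians were 461, 273 and 53.8 CPM. Summed over all Epi-derived cells of the wild type, DNMT3B went from 316 and 456 CPM on Day 10 to 191 and 205 CPM on Day 14.

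Few other genes of the methylation pathway could be read, since 4 of the 54 on the list were paired with an identifier. HELLS, a chromatin remodeller needed for DNA methylation, was at 657 to 752 CPM in wild-type Epi-like cells at Day 10 and 587 to 709 CPM at Day 14, a change of -0.08 (adjusted p = 0.908). CDCA7L, a relative of a HELLS partner, changed by -0.33 (adjusted p = 0.588), and IDH1, which makes the cofactor of the demethylating TET enzymes, by -0.16 (adjusted p = 0.896). DPPA3, which protects the oocyte genome and imprints, fell by 4.68 on the log2 scale (adjusted p = 0.00239), from 13.4 to 26.8 CPM at Day 10 to 0 to 0.791 CPM at Day 14. HELLS and CDCA7L were both called higher in wild-type Epi-derived than in trophoblast-like cells, as were 25.0% of all genes tested. CDCA7L was at 28.8 to 67.6 CPM in Epi-like and 0.26 to 1.24 CPM in trophoblast-like cells. The other methyltransferases, the TET enzymes and UHRF1 were not analysed here.

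The pluripotency-state genes that the study chose on these same samples moved between the same days, and their direction is therefore not independent evidence. The naive list held 4 genes that the study named as naive-state genes beside DNMT3L, and KHDC3L and DPPA5, which it named as pluripotency genes in another comparison. Of the 6, 3 fell from Day 10 to Day 14 in wild-type Epi-like cells, where 0.716% of all genes tested did: OOEP of the oocyte's subcortical complex (-3.78, adjusted p = 0.00095), KHDC1L (-6.82, adjusted p = 0.00219) and NLRP7 (-4.51, adjusted p = 0.000721). The other 3 did not pass, with DPP4 at -4.12 (adjusted p = 0.0361), KHDC3L at -1.62 (adjusted p = 0.0523) and DPPA5 at -0.53 (adjusted p = 0.388). Of 5 primed-state genes 4 rose, against 0.619% of all genes tested: CRABP2, which carries retinoic acid (2.97, adjusted p = 0.000721), VCAN, a matrix proteoglycan (4.07, adjusted p = 0.00105), SFRP1, a WNT antagonist (4.40, adjusted p = 0.00855), and CD24, a surface protein (1.44, adjusted p = 0.00977). USP44 stood at 1.26 (adjusted p = 0.0194). The medians were -3.95 for the naive and 2.97 for the primed list, where the median of all genes tested was -0.00. None of these 7 called genes was called without the wild-type Day 14 replicate 1 library, when 2 genes in all were.

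DNMT3B fell in the wild-type trophoblast. Wild-type trophoblast-like cells held 98.8 and 174 CPM at Day 10, 16.6 and 26.5 CPM at Day 12, and 5.78 and 15.6 CPM at Day 14. Mutant trophoblast-like cells held 25.4 CPM at Day 10, 15.3 and 7.56 CPM at Day 12, and 4.35 and 4.61 CPM at Day 14. Each later wild-type day lay below the day before with no overlap, as did 19.0% of all genes tested from Day 10 to Day 12 and 13.5% from Day 12 to Day 14.

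The change from Day 10 to Day 14 in the wild type was -3.72 (SE 0.51, 13.2-fold lower, adjusted p = 0.00753), when 1.35% of 15088 genes were called. It was 17.1-fold in batch 1, 11.2-fold in batch 2 and 5.84-fold in batch 1 of the mutants. The adjusted p stood close to the threshold: with a replicate block it was 0.0129 (log2 fold change -3.75), with only the libraries compared 0.0438 (-3.74), and over the 11 fits that left out 1 library each 0.00414 to 0.0568 (-4.46 to -3.22). The call was kept in the fits without wild-type Day 14 replicate 2 or mutant Day 10 replicate 1 and lost in the other 9. After thinning, the share of wild-type trophoblast-like cells with a DNMT3B UMI went from 48.2% and 76.0% at Day 10 to 14.6% and 19.0% at Day 12 and 4.71% and 11.7% at Day 14. The unthinned shares were 88.4% to 97.1%, 45.0% to 64.7% and 19.2% to 29.9%.

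As a share of the level in Epi-derived cells of the same library, DNMT3B of trophoblast-like cells was 5.63% to 38.2% at Day 10, 4.3% to 8.59% at Day 12 and 2.7% to 7.6% at Day 14. POU5F1 and NANOG, epiblast genes measured in the same way, stood at 0.0154% to 1.19% and 0.352% to 1.78% over all days. The lowest DNMT3B share was above the highest share of either gene, and the part of free RNA in these values was not tested. The authors' correction for free RNA had altered DNMT3B by 0.988% of its UMIs and DNMT3L by 0.776%.

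The difference between the lineages was tested itself. In the wild-type libraries the Day 10 to Day 14 change of DNMT3B in Epi-like cells minus that in trophoblast-like cells was 3.71 on the log2 scale (SE 0.32, adjusted p = 0.000173), when 2.57% of 13829 genes were called, and it stayed called without any 1 of the 6 libraries (3.16 to 4.23). For DNMT3L the same difference was -0.82 (SE 0.56, adjusted p = 0.44). The 2 comparisons within it share no cells but come from the same libraries.

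**Figure D3:**
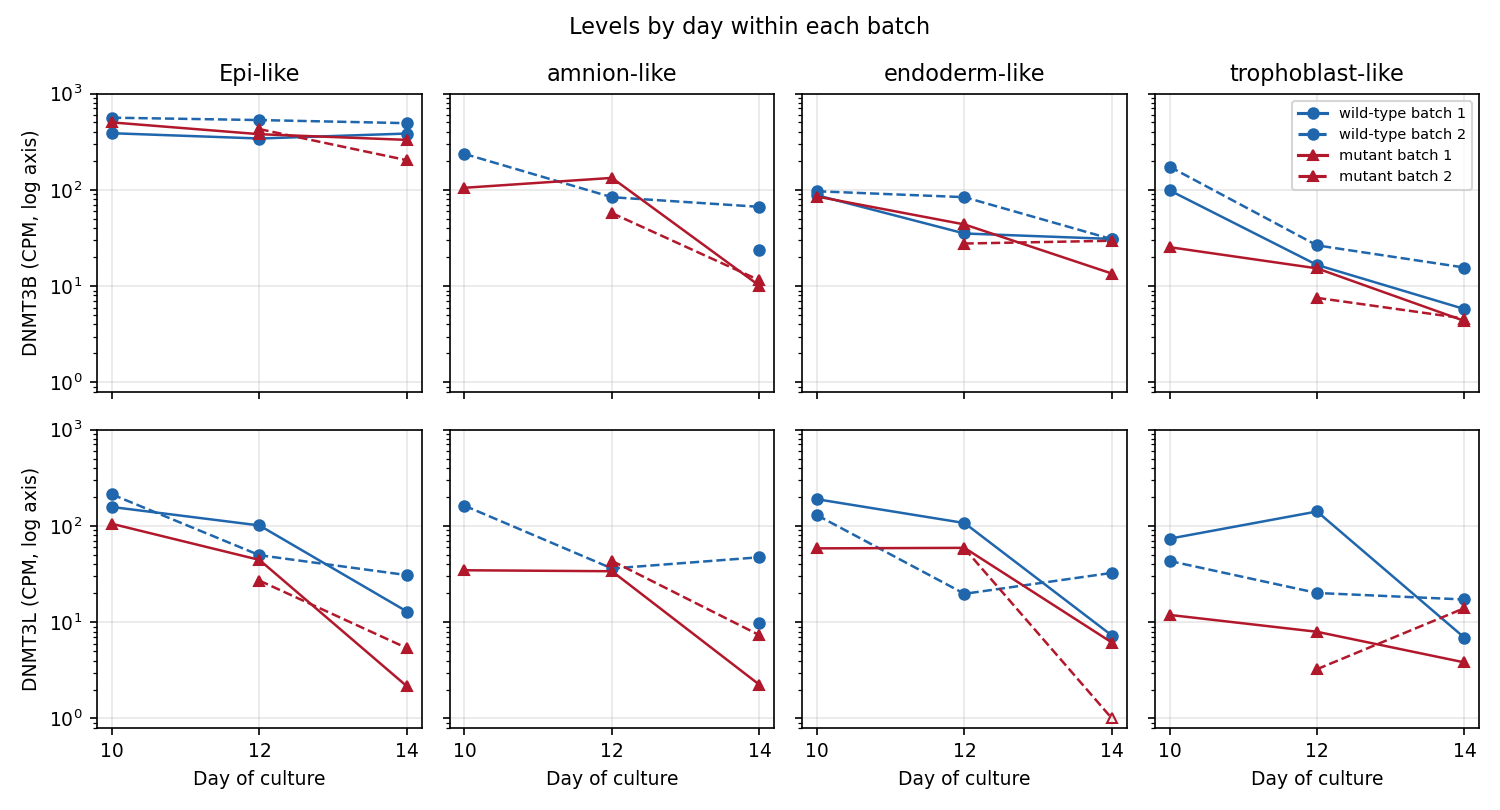
Level of DNMT3B and DNMT3L (CPM, log axis) by day of culture in Epi-like, amnion-like, endoderm-like and trophoblast-like cells, with 1 point per library and lines joining the libraries of 1 batch number and genotype as the legend gives (0 CPM is drawn as an open symbol at 1). The joined libraries came from different embryos. DNMT3B lies between 341 and 561 CPM in wild-type Epi-like cells of any day and goes from 98.8 and 174 CPM to 5.78 and 15.6 CPM in trophoblast-like cells, while DNMT3L goes from 157 and 212 CPM to 12.9 and 30.8 CPM in Epi-like cells.

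DNMT3L in the trophoblast was more uneven. It stood at 73.6 and 43.2 CPM at Day 10, 141 and 20.1 CPM at Day 12, and 6.89 and 17.2 CPM at Day 14 in the wild type. In the mutants it stood at 11.9 CPM at Day 10, 7.95 and 3.25 CPM at Day 12, and 3.82 and 14.0 CPM at Day 14. The wild-type change from Day 10 to Day 14 was -2.34 (SE 0.99, adjusted p = 0.181), with a 10.7-fold decrease in batch 1 and a 2.51-fold decrease in batch 2, and in batch 2 of the mutants the Day 14 level was above that of Day 12. The change from Day 10 to Day 12 was 0.52 (adjusted p = 0.81), and it was -1.64 (adjusted p = 0.392) without the library of wild-type Day 12 replicate 1, which came from 1 embryo.

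In endoderm-like, amnion-like and mesoderm-like cells of the wild type the Day 14 levels were lower than those of Day 10 without passing the test. In wild-type endoderm-like cells DNMT3B changed by -1.59 (SE 0.40, adjusted p = 0.148) and DNMT3L by -3.29 (SE 0.75, adjusted p = 0.113), where 0.0307% of genes were called, and the Day 14 libraries lay below those of Day 10 for both genes, as they did for 19.3% of all genes tested. In wild-type amnion-like cells the changes were -2.47 (adjusted p = 0.148) and -2.77 (adjusted p = 0.154), and in mesoderm-like cells -0.79 (adjusted p = 0.367) and -3.26 (adjusted p = 0.177). Wild-type mesoderm-like cells held 95.4 and 119 CPM of DNMT3L at Day 10, 7.40 CPM at Day 12 in replicate 2, and 4.85 and 24.2 CPM at Day 14, and those of mutant replicate 1 held 53.8, 39.5 and 2.56 CPM (the last from 1 UMI) at the 3 days. This change passed without wild-type Day 14 replicate 2 (-4.37, adjusted p = 0.00388). Mutant amnion-like cells changed from Day 12 to Day 14 by -2.98 for DNMT3B (adjusted p = 0.0222) and -3.01 for DNMT3L (adjusted p = 0.0385), with 0.431% of genes called. Both passed with a replicate block within each genotype (adjusted p = 0.000274 and 0.000674 by edgeR), an alternative that was not planned.

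In ExE-Mech-like cells DNMT3B stayed under 50 CPM and DNMT3L under 20 CPM in each library. DNMT3B was at 22.3 CPM at Day 12 and 17.3 and 18.4 CPM at Day 14 in the wild type, and at 48.7 CPM, 25.6 and 19.2 CPM, and 12.9 and 13.8 CPM at the 3 days in the mutants. DNMT3L was at 6.02 CPM at Day 12 and 2.88 and 18.2 CPM at Day 14 in the wild type, and at 6.65 CPM, 15.6 and 11.6 CPM, and 13.8 and 11.2 CPM in the mutants. From Day 10 to Day 14 the mutants changed by -1.77 for DNMT3B (adjusted p = 0.0478) and by 1.0 for DNMT3L (adjusted p = 0.514), where edgeR called 0 of 12786 genes and 2899 had an unadjusted p under 0.05. In batch 2 of the wild type DNMT3L stood higher at Day 14 (18.2 CPM) than at Day 12 (6.02 CPM). At mutant Day 14 the DNMT3L level of ExE-Mech-like cells was above that of the Epi-derived cells of the same library (2.14 and 6.87 CPM), and at mutant Day 10 their DNMT3B level was above that of trophoblast-like cells (25.4 CPM).

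DNMT3L in the trophoblast sat in a few clusters. A cluster was set apart when its DNMT3L reached 100 CPM, so what follows on DNMT3L describes that choice and was not tested. There were 2 such clusters of 10 trophoblast-like clusters at Day 10, 2 of 22 at Day 12 and 2 of 26 at Day 14, with 184 of 1062, 292 of 9395 and 308 of 12413 trophoblast-like cells. The lowest level inside was 174, 245 and 182 CPM for the 3 days, and the highest outside was 27.7, 20.5 and 21.1 CPM. Clusters under 5 CPM numbered 5, 19 and 23.

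**Figure D4:**
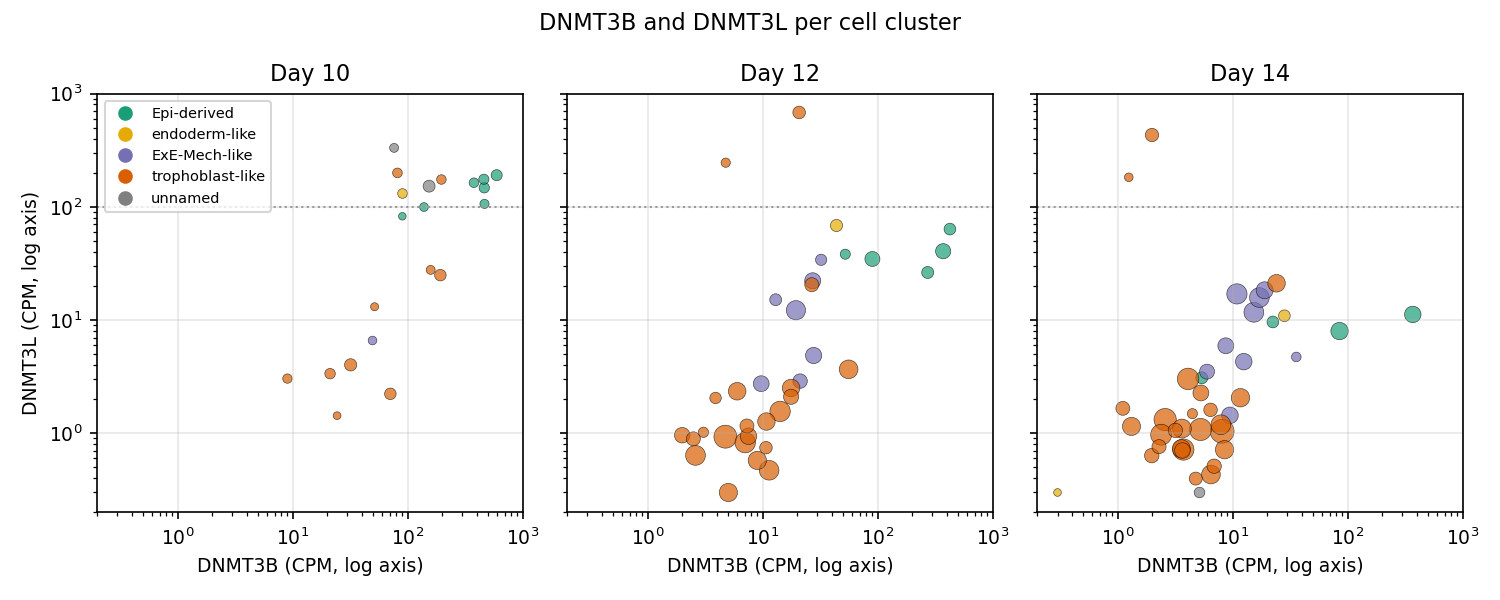
DNMT3L level (CPM) of each cluster against its DNMT3B level (CPM), both on log axes, by day, with 1 point per cluster sized by its cells and coloured by class (values under 0.3 CPM are drawn at 0.3, and the dotted line marks 100 CPM of DNMT3L). Trophoblast-like clusters lie mostly under 5 CPM of DNMT3L, with 2 clusters above the line at each day.

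These cells carried most of the trophoblast's DNMT3L in every library. In the wild type they were 32.1% and 22.4% of trophoblast-like cells at Day 10 with 82.7% and 69.6% of the DNMT3L UMIs, 12.2% and 8.79% at Day 12 with 96.6% and 93.3%, and 2.42% and 0.565% at Day 14 with 61.6% and 72.9%. In the mutants they were 3.3% of cells at Day 10 with 72.7% of the UMIs, 2.32% and 2.44% at Day 12 with 67.4% and 71.6%, and 0.894% and 7.01% at Day 14 with 66.9% and 89.0%. The 72.9% of wild-type Day 14 replicate 2 came from 5 cells, 3 of which held a DNMT3L UMI. Trophoblast-like cells outside these clusters held 17.6, 16.9 and 3.38 CPM at Day 10 (the mutant last) and 0.938 to 5.44 CPM at the later days.

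DNMT3B, which the choice did not use, was not gathered in these cells in the same measure. They held 42.6% and 15.7% of the trophoblast's DNMT3B UMIs at wild-type Day 10, 12.1% and 8.38% on Day 12, and 0.274% and 0.249% on Day 14. In the mutants they held 9.88% on Day 10, 3.29% and 2.29% on Day 12, and 0% and 1.84% on Day 14. At Day 10 these shares were above the shares of cells in wild-type replicate 1 and the mutant library and below in wild-type replicate 2, at Day 12 they were near them, and at Day 14 below them. The 0% of the Day 14 mutant library stands for 0 UMIs in 58 cells, which allows up to 5.85 CPM. The wild-type shares of that day rest on 2 UMIs in 57 cells and 1 UMI in 5 cells. The median depth of the cells set apart was 3967 to 35801 UMIs at Day 14 and that of the other trophoblast-like cells 11560 to 49677.

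**Figure D5:**
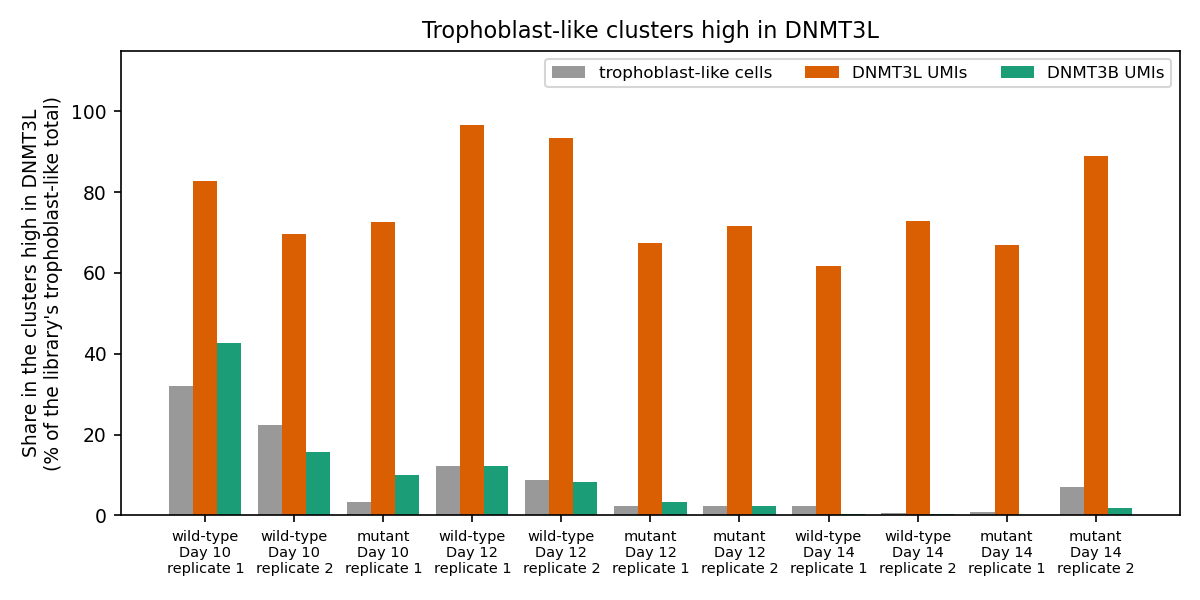
Share (percent) of trophoblast-like cells, of their DNMT3L UMIs and of their DNMT3B UMIs that fell in the clusters with at least 100 CPM of DNMT3L, for each of the 11 libraries. The DNMT3L share lies between 61.6% and 96.6% in every library, while the share of cells lies between 0.565% and 32.1%.

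The leading genes differed between these clusters. At Day 10 a cluster of 95 cells (199 CPM of DNMT3L, 81.7 CPM of DNMT3B) was led by LITAF, HMOX1, which degrades heme, SGK1, a kinase, and TBX3, a T-box factor. The same 4 genes were among the first 5 of a Day 12 cluster of 213 cells, which stood at 680 CPM of DNMT3L and 20.8 CPM of DNMT3B. Its DNMT3L was 1290 and 220 CPM in the wild-type libraries and 200 and 20.3 CPM in the mutant ones, where the first value came from 35 cells. The leading genes were ranked only among those with a symbol, and DNMT3L, for which the cluster was chosen, came first there, against 3.24 CPM in the other trophoblast-like cells.

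The second Day 10 cluster, of 89 cells, held 174 CPM of DNMT3L and 197 CPM of DNMT3B. It was led by S100A14, IFITM1, S100A16, CDX2 and HAND1, the last 2 being trophectoderm factors that the paper also lists among mesoderm genes. Its trophoblast name is weak, with a marker score of 0.121 against 1.146 in the first cluster and 0 trophoblast markers among its 10 leading genes. In wild-type replicate 1 it held 797 of the 1759 DNMT3L UMIs and 791 of the 2363 DNMT3B UMIs of trophoblast-like cells. CGA, the alpha subunit of chorionic gonadotropin, stood at 21.6 CPM in it, against 16600 CPM in the first cluster. Its DNMT3L was 221 and 130 CPM in the wild-type libraries, and the 3 mutant cells held 0 UMIs, which allows up to 7.62 CPM. At Day 12 and Day 14 further clusters had CGA, TUBA4A and the metallothionein gene MT2A among their leading genes. The one of Day 12 (79 cells, 71 of them from mutant replicate 2) stood at 245 CPM of DNMT3L and 4.78 CPM of DNMT3B, with CGA at 171000 CPM. The one of Day 14 (250 cells) stood at 430 CPM of DNMT3L and 1.99 CPM of DNMT3B, with CGA at 149000 CPM. Its DNMT3L was 396 and 2060 CPM in the wild-type libraries, the second from 5 cells, and 409 and 350 CPM in the mutant ones. A last cluster of 58 cells at Day 14 (182 CPM), led by SAT1, SPNS2 and RGS5, came from mutant replicate 2 alone, so it may be that library and not a type.

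A doublet caller marked at most 0.99% of the cells set apart in any library. Without integration of the libraries, which was added after the data were seen, 4, 2 and 2 clusters reached 100 CPM at the 3 days. They shared 61.4%, 72.9% and 100% of the cells set apart with integration, which were 36.1%, 82.2% and 66.7% of the cells set apart without it.

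Further cells high in DNMT3L at Day 10 could not be named. A cluster of 184 cells held 152 CPM of DNMT3L and 154 CPM of DNMT3B, and a cluster of 68 cells held 331 CPM of DNMT3L and 76.4 CPM of DNMT3B. S100A14, S100A16 and CDX2 were among the leading genes of both, as in the second Day 10 cluster above, and CGA stood at 32.8 and 5.42 CPM. All of their cells came from the wild-type libraries.

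Mutant and wild-type embryos were compared at each day for the question of what the ISL1 edit changes. At Day 14, in the 5 classes with 2 libraries of each genotype, both mutant libraries lay below both wild-type ones in 5 classes for DNMT3B and in 3 for DNMT3L. In endoderm-like cells, which are among them for both genes, the order is resolved for neither. For DNMT3B the mutant replicate 2 value of 29.6 CPM rests on 5 UMIs, against 30.9 CPM and 30.7 CPM (17 UMIs) in the wild type. For DNMT3L the mutant values of 6.14 and 0 CPM rest on 5 and 0 UMIs, and the limit given above for the 0 exceeds the wild-type value of 7.26 CPM. None of the 10 differences passed the threshold by the edgeR test or DESeq2. In Epi-like cells DNMT3B differed by -0.65 (95% interval -1.2 to -0.10, adjusted p = 0.27 by edgeR) and DNMT3L by -2.25 (-3.53 to -0.98, adjusted p = 0.11), where 0.203% of the genes tested were called. The mutant DNMT3L values rest on 4 and 8 UMIs there, and on 4 and 7 UMIs in amnion-like cells. In amnion-like cells, the class that expresses ISL1, DNMT3B differed by -1.79 (-2.98 to -0.59, adjusted p = 0.133) and DNMT3L by -2.27 (-3.88 to -0.67, adjusted p = 0.149), with 0.133% of genes called. The mutant libraries of Day 14 lay below the wild-type ones in both classes for both genes, as they did for 24.8% of all genes tested in Epi-like and 28.8% in amnion-like cells. The unadjusted p was 0.0366 and 0.00408 in Epi-like cells, where 1712 genes had one under 0.05 by the edgeR test, and 0.0155 and 0.0199 in amnion-like cells, where 2131 did. Markers of other lineages moved with the amnion-like class: at Day 14 the 11 trophoblast markers summed to 1870 and 783 CPM in the mutants and 318 and 217 CPM in the wild type, and the 8 ExE-Mech markers to 1910 and 1090 CPM against 613 and 466 CPM. Scaled by its CGA, trophoblast RNA would carry 32.0% of the DNMT3L of these cells in mutant replicate 1 and at most 1.4% in the other 3 Day 14 libraries. The part of such RNA in the differences was not tested.

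Outside the epiblast lineage 5 of the 6 intervals held 0. DNMT3B at Day 14 differed by -1.18 in trophoblast-like cells (95% interval -2.10 to -0.26, adjusted p = 0.329), by -0.79 in endoderm-like cells (-1.79 to 0.21, adjusted p = 0.792) and by -0.35 in ExE-Mech-like cells (-0.80 to 0.10, adjusted p = 0.462). DNMT3L differed by -0.34 (-2.20 to 1.52), -1.71 (-3.86 to 0.45) and 0.37 (-0.90 to 1.65) in the same classes (adjusted p = 0.906, 0.797 and 0.783). Of all genes tested, 20.7%, 20.1% and 24.6% lay lower in both mutant libraries in these 3 classes. In mesoderm-like cells, with 1 mutant library at Day 14, DNMT3B differed by -0.35 (adjusted p = 0.832 by edgeR), where the mutant level of 61.5 CPM lay between the wild-type ones, and DNMT3L by -2.13 (adjusted p = 0.718). By edgeR 0.0% of the 15088, 9769 and 12786 genes tested in trophoblast-like, endoderm-like and ExE-Mech-like cells were called, while 2054, 693 and 2166 had an unadjusted p under 0.05 and DESeq2 called 284, 20 and 216.

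At the earlier days no difference of either gene between the genotypes passed the threshold by the edgeR test. In Epi-like cells DNMT3B differed by 0.05 at Day 10 (95% interval -0.60 to 0.70) and by -0.11 at Day 12 (-0.66 to 0.44), and DNMT3L by -0.84 (-1.86 to 0.18) and -1.06 (-1.92 to -0.20, adjusted p = 0.483). In trophoblast-like cells DNMT3B differed by -2.43 at Day 10 (adjusted p = 0.111), between 25.4 CPM in the single mutant library and 98.8 and 174 CPM in the wild type, which DESeq2 called (adjusted p = 0.00128). Of the genotype differences of these 2 genes the largest was that of DNMT3L in trophoblast-like cells at Day 12, at -3.99 (95% interval -6.14 to -1.83, unadjusted p = 0.00499 and adjusted p = 0.215 by edgeR), between 7.95 and 3.25 CPM in the mutants and 141 and 20.1 CPM in the wild type. DESeq2 called it (-4.01, adjusted p = 0.000736), and it was -1.82 (adjusted p = 0.397 by edgeR) without wild-type replicate 1. In amnion-like cells DNMT3L differed by -2.32 at Day 10 (adjusted p = 0.423), with 1 library of each genotype, and by 0.13 at Day 12 (adjusted p = 0.962). In mesoderm-like cells DNMT3L differed by 2.42 at Day 12 (adjusted p = 0.799 by edgeR), with 1 library of each genotype. Depth per cell was lower in mutant than in wild-type libraries at the later days, and its part in these differences was not tested.

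The genes whose level was most like that of each member were sought over 63 sums of class and library, among 803 candidate genes with a symbol, by Pearson's r on the log2 scale. For DNMT3B they included ZNF676 (r = 0.88), KHDC3L (0.855), DPPA5 (0.853) and UTF1 (0.847), of which the last 3 are known from pluripotent cells. For DNMT3L they included NLRP7 (r = 0.778), NLRP2 (0.746), MT1B (0.675) and OOEP (0.674). DNMT3L came at rank 97 for DNMT3B and DNMT3B at rank 9 for DNMT3L (r = 0.641). The sums of 1 library share its depth and embryos, so these coefficients are a description and have no p.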

How the data were processed

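Single-cell RNA sequencing (Chromium 3′ v3) of 11 libraries was analysed. For both tables the authors used Cell Ranger 3.1.0 with Macaca_fascicularis_5.0 (Ensembl release 96), kept genes seen in at least 3 cells and cells with under 7.5% mitochondrial reads. For 1 of the tables they corrected free RNA with SoupX, set on choriogonadotropin in POU5F1-positive cells. The authors deposited the corrected table in the unit of estimated counts (whole numbers) and the uncorrected table as counts; both hold UMIs per gene and cell, with Ensembl identifiers. The correction removed 0.196% to 8.77% of the UMIs of a library. The deposited tables hold the 7194 wild-type cells that the study states.

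Symbols were paired with identifiers through the study's supplementary marker tables (1016 symbols). The 2 members and all gene lists were chosen with earlier results of these data known. Each day was clustered with Seurat 5.3.0 (reciprocal PCA integration, 5000 variable features without the members and listed genes, 30 components, resolution 0.8, seed 42), and clusters were named from lineage markers. Scrublet (scanpy 1.11.5) marked 0% to 2.38% of cells per library, and these were kept. Corrected counts were summed per library and class (at least 5 cells) and tested with edgeR 4.0.16 (TMM, filterByExpr, quasi-likelihood test, two-sided, Benjamini-Hochberg over all genes tested, 1% false discovery rate). Class comparisons had the library as a block, day and genotype comparisons used the 6 groups of genotype and day, and the comparison of day changes between lineages used the wild-type libraries with the library as a block. SE is the log2 fold change over the root of the F statistic. Named were the members and each gene of the lists that had an identifier. Of the genes most like a member in level, some are not reported here. Limits for a count of 0 are 3 counts, and intervals and limits of shares cover counting error only.

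Alternatives were DESeq2 1.42.0, its size factors, no filter on low counts, uncorrected counts, clustering without integration, lineages by marker percentile, leaving out marked cells, at least 20 cells, a replicate block, only the libraries compared, and leaving out each library. A replicate block within each genotype was also run and was not planned. The replicate block gave libraries of the same number 1 term shared by both genotypes. For the folds by batch and the block within each genotype, libraries of the same number were treated as 1 batch within a genotype. The library titles do not say that a number is shared across genotypes or days. Deviations of same-numbered libraries correlated at -0.09 to 0.36 within genotypes in Epi-like cells and 0.01 to 0.24 in trophoblast-like cells. Between genotypes they correlated at -0.37 to 0.09, so the ranges overlap and do not settle it. Tested on simulated counts, the Day 14 against Day 10 fit recovered 5.97%, 46.3% and 87.9% of genes changed by 1, 2 and 3 on the log2 scale in wild-type Epi-like cells (9815 genes) and 0%, 17.9% and 45.5% in trophoblast-like cells (14629 genes), and the fit of wild-type Epi-derived against trophoblast-like cells recovered 32.8%, 74.6% and 92.4% (12770 genes). No genome of the build used was at hand, so no sequences or coordinates are given. Computation used Python 3.11.15 and R 4.3.3.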

Additional observations from a re-analysis of the deposited data

Results flagged for a closer look

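The change of DNMT3B from Day 10 to Day 14 differed between Epi-like and trophoblast-like cells of the wild-type libraries, by a test of the difference itself. The difference was 3.71 on the log2 scale (adjusted p = 0.000173 by the edgeR quasi-likelihood test, SE 0.32), between a change of -0.08 in Epi-like cells and -3.72 in trophoblast-like cells. It held without each of the 6 libraries, between 3.16 and 4.23, and with DESeq2 at 3.76. Within the trophoblast the change was -4.10 in batch 1 and -3.48 in batch 2.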

How the results depend on the processing

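Of the main comparisons of both genes, 234 refits under other alternatives kept their direction and side of the threshold, 4 gained a call and 3 lost it, while 248 of the refits without 1 library kept both, 15 lost a call and 4 turned direction.

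The wild-type trophoblast change of DNMT3B from Day 10 to Day 14 lost its call with a replicate block (-3.75, adjusted p = 0.0129) and with only the libraries compared (-3.74), and ran from -4.46 to -3.22 without 1 library. The replicate block changed no other call of the main comparisons. The DNMT3L change of mutant Epi-like cells from Day 10 to Day 14, which is not among them, also lost its call with it, as given above. DNMT3L in wild-type Epi-like cells over the same days ran from -3.75 to -2.64 without 1 library and from -3.79 to -3.21 under the other alternatives. The DNMT3L difference of Epi-like from mesoderm-like cells lost its call without integration (0.80). DNMT3L of wild-type endoderm-like cells gained a call with DESeq2 (-3.14) and with no filter (-3.32), DNMT3B there with no filter (-1.61), and DNMT3L of mutant against wild-type Epi-like cells at Day 14 with no filter (-2.30, adjusted p 0.000129 to 0.392 over all alternatives). DNMT3B of wild-type Epi-like cells over the days ran from -0.29 to 0.16, mutant against wild-type DNMT3L at Day 14 from -1.65 to 0.34 in trophoblast-like and from -0.40 to 2.09 in ExE-Mech-like cells. The ratio difference ran from -2.86 to -2.10 without 1 library (exact permutation p 0.0167 to 0.08) and from -2.86 to -2.51 under the other alternatives (p 0.0133 to 0.04). By marker percentile the DNMT3L difference of endoderm-like from trophoblast-like cells in the wild type turned to -0.41, that of Epi-derived from endoderm-like cells in the mutants to 0.72 (-0.59 to 0.08 without 1 library), and the DNMT3B difference of ExE-Mech-like from trophoblast-like cells in the wild type to 0.15 (-0.62 to 0.04 without 1 library, 0.00 without Day 10 replicate 1). DNMT3B in Epi-like cells at Day 12 ran from -0.33 to 0.17 between genotypes without 1 library, the last without wild-type replicate 2. HELLS turned to 0.12 without integration and ran from -0.33 to 0.09 (0.07 without wild-type Day 10 replicate 1) without 1 library, and IDH1 to 0.15 and 0.10. DNMT3L of trophoblast-like cells from Day 10 to Day 12 ran from -1.64, without wild-type Day 12 replicate 1, to 1.35. The cause of these shifts was not tested.

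The number of genes called from Day 10 to Day 14 was 138 in wild-type Epi-like cells, 241 with DESeq2, 655 with no filter, 73 without integration, 75 with only the libraries compared and 2 to 205 without 1 library. In trophoblast-like cells it was 204, and 1741, 505, 56 with a replicate block 0 with only the libraries compared and 0 to 516 without 1 library. For the difference between both changes it was 355, 638 with DESeq2, 838 with no filter and 32 (without wild-type Day 14 replicate 1) to 800 (without Day 10 replicate 1). Between genotypes at Day 14 it was 21 in Epi-like cells, 143 with DESeq2, 331 with no filter, 0 without integration and 0 to 38 without 1 library. For amnion-like cells between genotypes at Day 14 the number was 13, 164 with DESeq2, 0 with no filter, 57 with a replicate block and 485 with a block within each genotype. For wild-type endoderm-like cells from Day 10 to Day 14 it was 3, 32 with DESeq2, 265 with no filter and 17 with a block within each genotype. Lineages by marker percentile gave 3089 for 5025 genes of Epi-derived against endoderm-like cells. The fit of only the libraries compared was not run between Day 14 and Day 10 for ExE-Mech-like cells, which lacked a wild-type Day 10 group, nor the block within each genotype for 1 class, where it could not be fitted.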
